A study of Mus musculus with 15 samples.

Results

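The genes described here are those for the proteins of the cytosolic ribosome, read in sorted alveolar macrophages, the resident phagocytes of the lung airspaces. They were chosen by name and annotation alone, as protein-coding genes whose symbol begins with Rpl or Rps and a digit, or is Rplp0, Rplp1, Rplp2 or Rpsa, leaving out the Rps6k kinases and the pseudogenes. The rule found 86 of the 40510 genes, of which 52 carry a symbol of the large (60S) subunit and 34 one of the small (40S) subunit. One of them, Rps19bp1, meets the rule by its name but encodes a protein that binds Rps19, not a subunit of the ribosome. Another, Rpl7l1, is a paralogue of Rpl7 placed in ribosome assembly and is counted here by its symbol. The rule uses no expression value, though the family was chosen for description with earlier results of these data known.

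RNA sequencing was done on 15 libraries in 5 groups of 3, all from untreated C57BL/6 mice and all sorted as CD45+ Ly6G- SiglecF+ CD11c+ cells of bronchoalveolar lavage. The mice either lacked a working Cybb gene (KO) or were wild type (WT). Cybb encodes the catalytic subunit (NOX2) of the phagocyte NADPH oxidase, and the knockout is a model of chronic granulomatous disease. The groups were CD11b-high cells of KO mice at 12 weeks of age, CD11b-low cells of KO mice at 12 weeks, CD11b-low cells of WT mice at 12 weeks, CD11b-low cells of KO mice at 4 weeks and CD11b-low cells of WT mice at 4 weeks. Each library held about 50000 cells pooled from 2 to 3 mice, so the spread between single animals was not measured. CD11b is an integrin chain that alveolar macrophages normally carry at a low level.

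Ribosomal proteins and ribosomal RNA together form the 2 subunits that read messenger RNA and join amino acids. The proteins are needed in equal numbers per ribosome apart from the paired P1 and P2 proteins of the stalk, their messenger RNAs are among the most abundant of a cell, and in mammals many begin with a C and a run of pyrimidines, the terminal oligopyrimidine (TOP) motif, through which growth signals act on their translation. Alveolar macrophages maintain themselves in the lung and depend on the growth factor GM-CSF.

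The annotated starts of the genes are shown first, because the pyrimidine run at the start is the feature that the family is known for. RefSeq promoters on GRCm38.p6 were found for 66 of the 86 genes. Each line gives 30 bases before the annotated first base of the transcript and 15 from it on, 5′ to 3′. Capitals mark the unbroken run of C and T that holds the first base, where there is one. For Rps21, Rpl35a and Rps27l, which have several annotated starts, 1 is shown.
Rps18 (chr17:33955651-33955695, minus strand): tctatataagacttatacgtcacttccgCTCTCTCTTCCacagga
Rpl35 (chr2:39005117-39005161, minus strand): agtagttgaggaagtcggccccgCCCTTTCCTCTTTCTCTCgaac
Rps21 (chr2:180257349-180257393, plus strand): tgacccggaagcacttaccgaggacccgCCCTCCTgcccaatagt
Rpl35a (chr16:33056452-33056496, plus strand): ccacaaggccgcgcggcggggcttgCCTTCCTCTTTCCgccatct
Rps15a (chr7:118116133-118116177, minus strand): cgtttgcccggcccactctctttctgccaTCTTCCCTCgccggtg
Rpl15 (chr14:18270972-18271016, minus strand): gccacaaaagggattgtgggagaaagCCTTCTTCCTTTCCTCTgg
Rpl38 (chr11:114668550-114668594, plus strand): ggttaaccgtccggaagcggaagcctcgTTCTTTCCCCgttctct
Rps27 (chr3:90213634-90213678, minus strand): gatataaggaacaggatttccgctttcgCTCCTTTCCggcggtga
Rpl18 (chr7:45718041-45718085, plus strand): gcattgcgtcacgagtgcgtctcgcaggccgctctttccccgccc
Rps27l (chr9:66946056-66946100, plus strand): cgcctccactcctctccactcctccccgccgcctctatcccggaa
Rpl22l1 (chr3:28805478-28805522, plus strand): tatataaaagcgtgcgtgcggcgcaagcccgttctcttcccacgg
The first 5 belong to genes that rose with age in WT cells, described below, and the next 3 to genes with such a start that did not pass the test. Rpl18 had the smallest p of the family for KO against WT cells at 12 weeks. Its annotated first base is a G, and a run of C and T follows directly after it. The last 2 are paralogues, second copies of Rps27 and Rpl22.

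An annotated first base of C followed by C or T, for at least 5 bases in all, was present in 14 of the 66 genes (21.2%), against 3.01% of all 27025 genes of the promoter table. A run of at least 8 C or T within 10 bases of the start was present in 22 of 66 (33.3%), against 9.25% of all genes. Over the 300-base promoters, searched on both strands, CCGGAAG (the core of sites bound by ETS factors such as GABP) was present in 26 genes (39.4%), against 9.93% of all genes. AAGATGGC (the core bound by YY1) was present in 6 (9.09%), against 3.19%, and TATAAA in 7 (10.6%), against 15.7%. These are matches of letters and no evidence of binding, and annotated starts can differ from the starts used in macrophages.

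Library totals ran between 22856331 and 36458893 counts, and at least 1 count was found for all 86 genes in the table as a whole. Cybb itself was between 129 and 186 CPM (counts scaled to a common library size with TMM factors) in the KO libraries at 12 weeks and between 184 and 221 in those at 4 weeks, against 899 to 1222 in WT libraries at 12 weeks and 1531 to 2319 at 4 weeks, so every library matched its genotype label. The 12 alveolar macrophage markers, among them Siglecf, Itgax and Marco, were all detected, with a summed level of 35138.8 to 63717 CPM. Other cell types moved with the groups. The 14 T and NK cell markers summed to 55.4 to 211 CPM in the KO libraries at 12 weeks, against at most 8.39 CPM in every other library, and the 7 erythroid markers summed to 494 to 8333 CPM in WT libraries, against 49.5 to 171 in KO libraries. Neutrophil markers summed to 328 to 471 CPM in CD11b-high KO cells, against 54.9 to 151 CPM in every other library, though Ly6g was at 0 in every library. Eosinophil markers summed to 268 to 1047 CPM in the KO libraries at 12 weeks, against 132 to 222 CPM elsewhere, though Epx was at 0 in every library. Dendritic cell markers summed to 23.6 to 149 CPM in CD11b-high KO cells, against 2.22 to 20.04 CPM elsewhere. Their part in the values below was not tested.

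The first WT library at 12 weeks stood apart from the rest. It held the highest value of the 15 libraries for 57 of the 85 ribosomal protein genes that could be tested, and the second WT library of that age for 11 more. The same library had the lowest summed level of alveolar macrophage markers of all 15 (35138.8 CPM, against 46467.5 and 47063 CPM in the other two WT libraries of that age) and the highest of lung epithelial markers (142.8 CPM, against 73.9 and 112.8 CPM). Their part in the values was not tested. Total counts of called ribosomal protein genes, their medians and their share over all 86 genes are given with and without this library. The subunit shares and ratio and the related lists were not recomputed without it. Counts by subunit, level, unique share or pyrimidine start are given only with it. The same holds for counts of genes without overlap, counts of unadjusted p, the order of group means and most values of single genes.

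The ribosomal protein genes together took 1.81, 1.52 and 1.83% of all counts in CD11b-high KO cells, 1.72, 1.51 and 2.20% in CD11b-low KO cells at 12 weeks and 3.61, 2.66 and 2.48% in WT cells at 12 weeks. At 4 weeks they took 1.68, 1.59 and 1.71% in KO cells and 1.69, 1.69 and 1.60% in WT cells. The 3 WT libraries at 12 weeks were the 3 highest of the series, and the other 12 libraries lay between 1.51 and 2.20%. The mean was 1.81 ± 0.357% in CD11b-low KO cells at 12 weeks, against 2.92 ± 0.606% in WT cells of that age (SD, n = 3 each), and 2.57% in WT cells without the first library. These shares need no scaling factor. In bulk RNA, a lower share through fewer cells with a high level and one through less of this RNA per cell cannot be told apart.

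**Figure D1:**
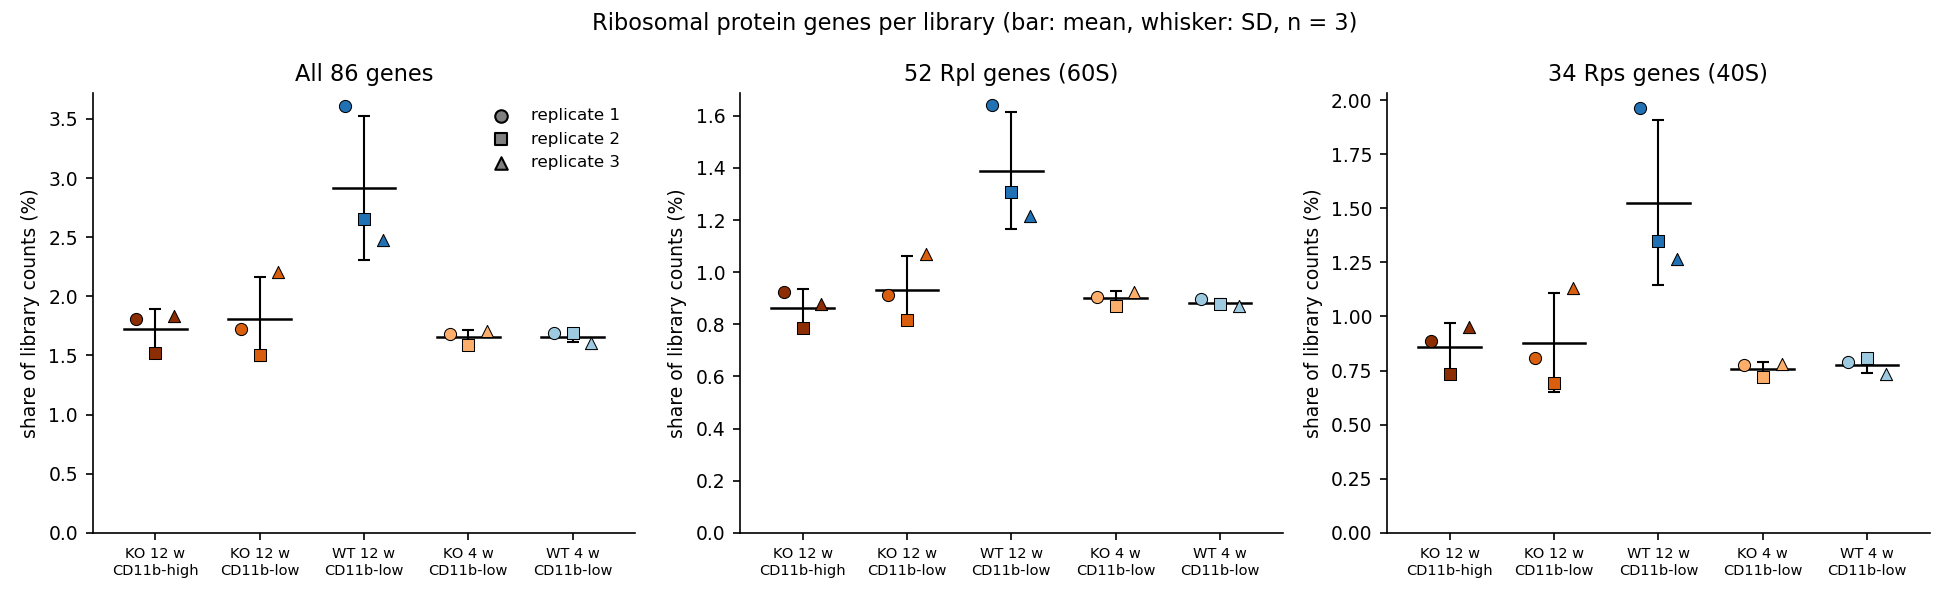
Share of each library's counts that fell in the ribosomal protein genes, in percent, for all 86 genes, the 52 Rpl genes and the 34 Rps genes; each symbol is a library (replicate 1, 2 or 3), the bar is the group mean and the whisker the SD. The WT libraries at 12 weeks sit between 2.48 and 3.61% for all 86 genes, above the other 12 libraries.

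Large-subunit genes took 0.933 ± 0.129% of the counts in CD11b-low KO cells at 12 weeks, against 1.39 ± 0.225% in WT cells. Small-subunit genes took 0.878 ± 0.229% in those KO cells, against 1.53 ± 0.382% in WT cells (SD, n = 3 each). The ratio of large- to small-subunit counts was 0.836 to 0.971 in the WT libraries at 12 weeks, against 1.09 to 1.18 in the WT libraries at 4 weeks, and these ranges did not overlap. In CD11b-low KO cells the ratio was 0.944 to 1.18 at 12 weeks, against 1.17 to 1.21 at 4 weeks. Counts of the mitochondrial genome were 0.505 to 0.801% in CD11b-low KO cells at 12 weeks, against 1.13 to 1.29% in WT cells at 12 weeks. They were 0.773 to 0.945% in KO cells and 0.738 to 1.17% in WT cells at 4 weeks, so the third WT library at 4 weeks, with a ribosomal protein share of 1.60%, was above the second WT library at 12 weeks. Their part in the result was not tested.

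Single genes differed widely in level. Rps3, a protein of the small-subunit head beside the messenger RNA entry, had the highest level, a mean of 2172 CPM over the 15 libraries and 10.9% of all ribosomal protein counts. It was followed by Rps9 (1503 CPM) and Rps14 (1367 CPM) of the small subunit and Rpl32 (1334 CPM) of the large subunit, and the 10 highest genes held 65.9% of the family's counts. Per length of the annotated main transcript, the level ran from 0.725 CPM per kb for Rpl24 to 2579 CPM per kb for Rpl32. By mean level 37 of the 85 genes were over 100 CPM, 23 between 10 and 100 CPM and 25 under 10 CPM. Rps6, the small-subunit protein phosphorylated by the S6 kinases, and Rps27 were in the lowest class, at 1.29 and 3.92 CPM per kb.

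Many ribosomal protein genes have processed pseudogenes whose sequence nearly equals the messenger RNA. Of the 85 genes, 79 shared at least one 75-base window with an annotated pseudogene, and 43 had at least 50% of their windows in no other gene. Those 43 genes had a median level of 241 CPM per kb, against 25.8 CPM per kb in the other 42. Across the 85 genes of these libraries the rank correlation (Spearman) of the unique share with the level per kb was 0.52, and 0.46 and 0.56 with windows of 50 and 100 bases, a description over genes of the same libraries. Rps3 was 100% unique, Rps6 15.9% and Rps27 1.48%, the lowest of the family. There were exceptions on both sides: Rps18 was only 22.2% unique at 451 CPM per kb, and Rps29 was 69.3% unique at 4.20 CPM per kb. The level of one gene against another is therefore uncertain, and how reads with several matches were counted is not given in the sources used here. Counts in the 251 pseudogene rows with a symbol that starts with Rpl or Rps and holds -ps were at most 0.0164% of any library. Pseudogenes under other symbols, which the window counts include, were not in this sum.

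**Figure D2:**
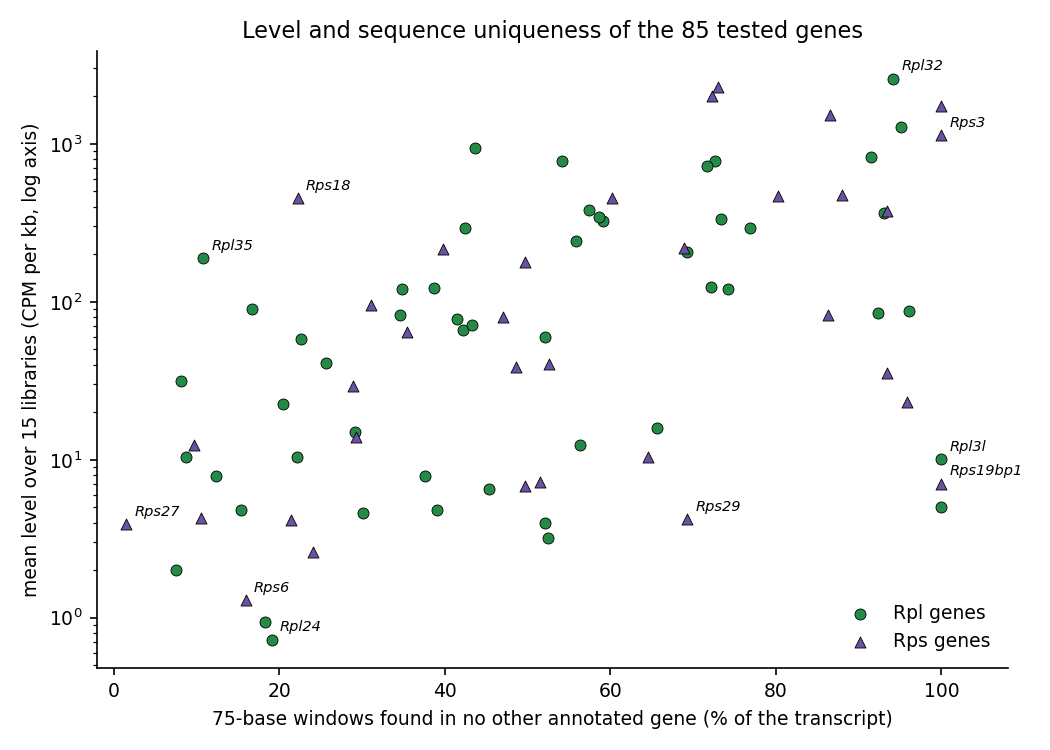
Mean level over 15 libraries in CPM per kb of transcript, on a log axis, against the share of the transcript's 75-base windows found in no other annotated gene; each point is one of 85 genes, circles for Rpl and triangles for Rps genes. Levels run from 0.725 CPM per kb (Rpl24) to 2579 CPM per kb (Rpl32), and the genes with fewer unique windows lie lower on the whole.

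Age in WT cells gave the largest number of calls. In CD11b-low WT cells at 12 against 4 weeks 46 of the 85 ribosomal protein genes rose and none fell (edgeR quasi-likelihood test, adjusted p under 0.05), while 8.79% of all 13284 tested genes rose and 8.39% fell. Calls of either direction made up 17.2% of all genes, against 54.1% of the ribosomal protein genes. The median log2 fold change of the 85 genes was 0.81, a 1.75-fold higher level, against -0.03 over all genes, and 76 of the 85 were above 0. Large-subunit genes were called in 26 of 51 and small-subunit genes in 20 of 34. For 59 genes every library at 12 weeks was above every library at 4 weeks, which held for 15.6% of all genes, and for 1 gene (Rpl5) below, against 18.7%.

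Rps14, a small-subunit platform protein whose loss on one chromosome underlies the anaemia of the human 5q- syndrome, had 2585, 2413 and 2340.1 CPM in the WT libraries at 12 weeks, against 844, 888 and 769 CPM in those at 4 weeks. The 2 groups were far apart and each was narrow. It rose by 1.55 on the log2 scale (SE 0.28, 2.94-fold, adjusted p = 0.00387 by edgeR). Rps18, a small-subunit head protein near the site where the peptidyl transfer RNA is held, had 489, 454.5 and 387 CPM at 12 weeks, against 166, 183 and 150.2 CPM at 4 weeks. Its log2 fold change was 1.42 (SE 0.25, adjusted p = 0.00371 by edgeR), with no overlap. Rpl35, a large-subunit protein beside the exit of the peptide tunnel, had 399.8, 277 and 220.3 CPM at 12 weeks, against 106, 135 and 96.6 CPM at 4 weeks. The first WT library at 12 weeks was the highest by a wide margin, and the log2 fold change was 1.41 (SE 0.29, adjusted p = 0.0055 by edgeR). Exons of another annotated gene overlap 68.3% of the Rpl35 transcript, and 59.3% of that of Rpl13a, so their reads cannot be assigned with certainty.

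Rps15, of the small-subunit head, had 545, 352 and 282 CPM in WT cells at 12 weeks, against 155, 151 and 142 CPM at 4 weeks. Rpl13a, a large-subunit protein that in human monocytes can leave the ribosome to silence inflammatory messenger RNAs, had 1881, 1774 and 1435 CPM at 12 weeks, against 702, 697.5 and 591 CPM at 4 weeks. Both rose with no overlap between ages, by 1.40 (SE 0.27) and 1.35 (SE 0.27) on the log2 scale, with adjusted p of 0.00452 and 0.00483 by edgeR. The 4 genes of highest level, Rps3, Rps9, Rps14 and Rpl32, all rose, between 1.17 and 1.55 on the log2 scale. Among genes over 100 CPM 31 of 37 rose, among those of 10 to 100 CPM 12 of 23, and among those under 10 CPM 3 of 25, so the calls lay mostly with the well-counted genes. Of the 43 genes with at least 50% unique windows 30 rose, and of the other 42 16 did.

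The genes that stayed under the threshold in this comparison were of several kinds. The lowest was Rpl5, which with Rpl11 forms the particle that binds 5S ribosomal RNA and can restrain Mdm2; it had 2.74, 3.31 and 2.88 CPM in WT cells at 12 weeks, against 3.54, 4.98 and 4.81 CPM at 4 weeks. Its log2 fold change was -0.58 and its adjusted p 0.297 by edgeR. Rpl4, with 1121, 1568 and 1318 CPM at 12 weeks, against 1068, 1035 and 1110 CPM at 4 weeks, was the most abundant of them, at a log2 fold change of 0.32. Of the 14 genes with a pyrimidine start that opens with C, as defined above, 8 rose. Of the 51 with a RefSeq promoter and no such start 27 did, and the median log2 fold changes were 0.85 and 0.83. Some of the 51 start on a T inside a pyrimidine run, of up to 16 bases from the first base on. In others, such as Rpl18, a run begins just after the first base, so the classes do not separate genes with and without a run. Rps18, Rpl35, Rps21, Rpl35a and Rps15a, printed above, were among the 8, while Rpl15, Rpl38 and Rps27, also of the 14, were not called.

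Without the first WT library at 12 weeks 41 of the 85 genes rose with age, 37 of them among the 46, and the median log2 fold change was 0.63. Among the genes named here, Rps27rt then missed the threshold (adjusted p = 0.05003 by edgeR), while Rpl3 (0.021), Rplp1 (0.0354) and Rplp2 (0.0266) passed it. Leaving out a single WT library at 4 weeks gave 25 (replicate 1), 29 (replicate 2) and 27 (replicate 3), all among the 46, and a fit to these 2 groups alone gave 23. TMM factors were 1.10 to 1.11 in these 4-week libraries, against 0.865 to 1.04 at 12 weeks. With plain library totals in place of the factors the median of all genes moved to -0.26, and 33 ribosomal protein genes rose.

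**Figure D3:**
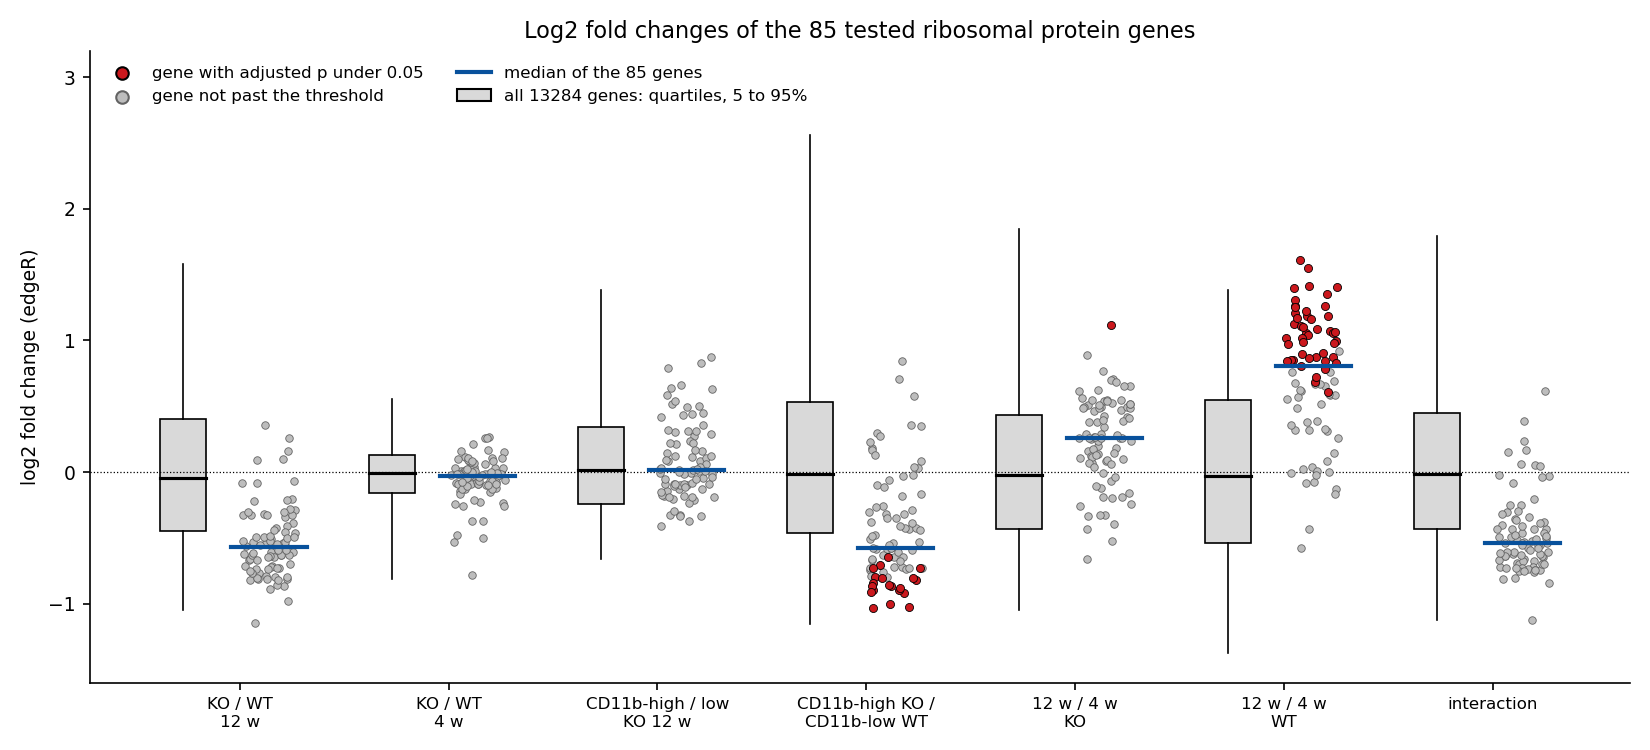
Log2 fold changes of the 85 tested ribosomal protein genes (points, red where the adjusted p is under 0.05) in 7 comparisons, beside the median, quartiles and 5 to 95% range of all 13284 genes (boxes). The blue line is the median of the 85 genes, which is 0.81 for age in WT cells and -0.57 for KO against WT cells at 12 weeks.

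In CD11b-low KO cells the same age comparison called 1 gene, Rpl3l, while 6.89% of all genes were called, 4.81% higher and 2.08% lower. The median log2 fold change of the 85 genes was 0.26, against -0.02 over all genes, and 67 were above 0. In 20 genes every KO library at 12 weeks was above every KO library at 4 weeks, near the 19.0% of all genes, and in 1 gene below, against 19.6%. Of the 85 genes 13 had an unadjusted p under 0.05 by edgeR, a smaller share than the 3323 of all 13284 genes tested. DESeq2 called 6 of the 85. With plain library totals the median of all genes moved to -0.36 and that of the ribosomal protein genes to -0.09, so their direction with age in KO cells depends on the scaling, though they stayed 0.27 above the median of all genes.

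Rpl3l, a paralogue of Rpl3 best known from heart and skeletal muscle, had 15.5, 10.5 and 21.2 CPM in CD11b-low KO cells at 12 weeks, against 7.53, 7.16 and 7.06 CPM at 4 weeks. In WT cells it had 29.35, 24.9 and 17.8 CPM at 12 weeks, against 8.115, 8.86 and 6.65 CPM at 4 weeks. It was higher in every library at 12 weeks than in any at 4 weeks, in both genotypes. The log2 fold change was 1.12 in KO cells (SE 0.29, adjusted p = 0.0279 by edgeR) and 1.61 in WT cells (SE 0.29, adjusted p = 0.00384), the largest of the family in both. The call in KO cells was lost without any one of 5 of the 6 libraries compared (adjusted p between 0.0682 and 0.148; without the second KO library at 12 weeks 0.0137), and with plain library totals (0.0883). All of its windows are unique, and its transcript overlaps no other gene. Rps14 had 1155, 880.4 and 2139.6 CPM in KO cells at 12 weeks, against 756, 696 and 799 CPM at 4 weeks, and its adjusted p was 0.0603. The third CD11b-low KO library at 12 weeks had the highest level of the group for Rps14, as it had the highest share of all ribosomal protein genes.

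Between genotypes at 12 weeks, KO against WT CD11b-low cells, no ribosomal protein gene passed the threshold with edgeR, where 3.1% of all genes were called, 2.6% higher and 0.497% lower. Most values lay on one side: 80 of the 85 log2 fold changes were below 0, with a median of -0.57, against -0.04 over all genes. That median is a 1.49-fold lower level in KO cells. As in every comparison here, the 85 values come from the same libraries and are not independent observations. An unadjusted p under 0.05 was found for 46 of the 85 genes, against 20.5% of all genes. In 25 genes every KO library lay below every WT library, which held for 7.99% of all genes, and in none was the order the other way, against 9.82% of all genes. DESeq2 called 12 genes lower and limma voom none.

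Rpl18, of the large subunit, had 57.05, 38.4 and 58.5 CPM in KO cells, against 110.3, 84.7 and 75.5 CPM in WT cells. All 3 KO libraries were below the lowest WT library, and KO and WT libraries at 4 weeks (40.5 to 51.2 CPM and 44.1 to 51.9 CPM) overlapped. Its log2 fold change at 12 weeks was -0.81 (SE 0.22), and its adjusted p of 0.057 by edgeR was the smallest of the family; over the alternatives its adjusted p ran from 0.0115 with DESeq2 to 0.411 in a fit to the 2 groups alone. Rpl39, a short protein that lines the peptide tunnel, had 46.1, 37.4 and 55.9 CPM in KO cells, against 114, 68.0 and 63.6 CPM in WT cells. Rpl35a, a large-subunit protein mutated in some human Diamond-Blackfan anaemia, had 97.6, 81.05 and 159.5 CPM in KO cells, against 260.1, 190.9 and 162.3 CPM in WT cells. In both genes the KO libraries lay below the WT libraries, with log2 fold changes of -0.82 and -0.86 and adjusted p of 0.0711 and 0.0727 by edgeR.

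Without the first WT library at 12 weeks the median log2 fold change for KO against WT cells was -0.42 and no gene was called. Without the third CD11b-low KO library 14 genes were called lower, and without the third WT library 1. The genes not below 0 were Rpl7l1, a paralogue of Rpl7 placed in ribosome assembly in yeast and human cells, and Rpl5, Rpl23a, Rpl15 and Rpl4, with log2 fold changes up to 0.36. This comparison shares its WT libraries with age in WT cells and its KO libraries with the CD11b comparison, so their values are not independent.

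**Figure D4:**
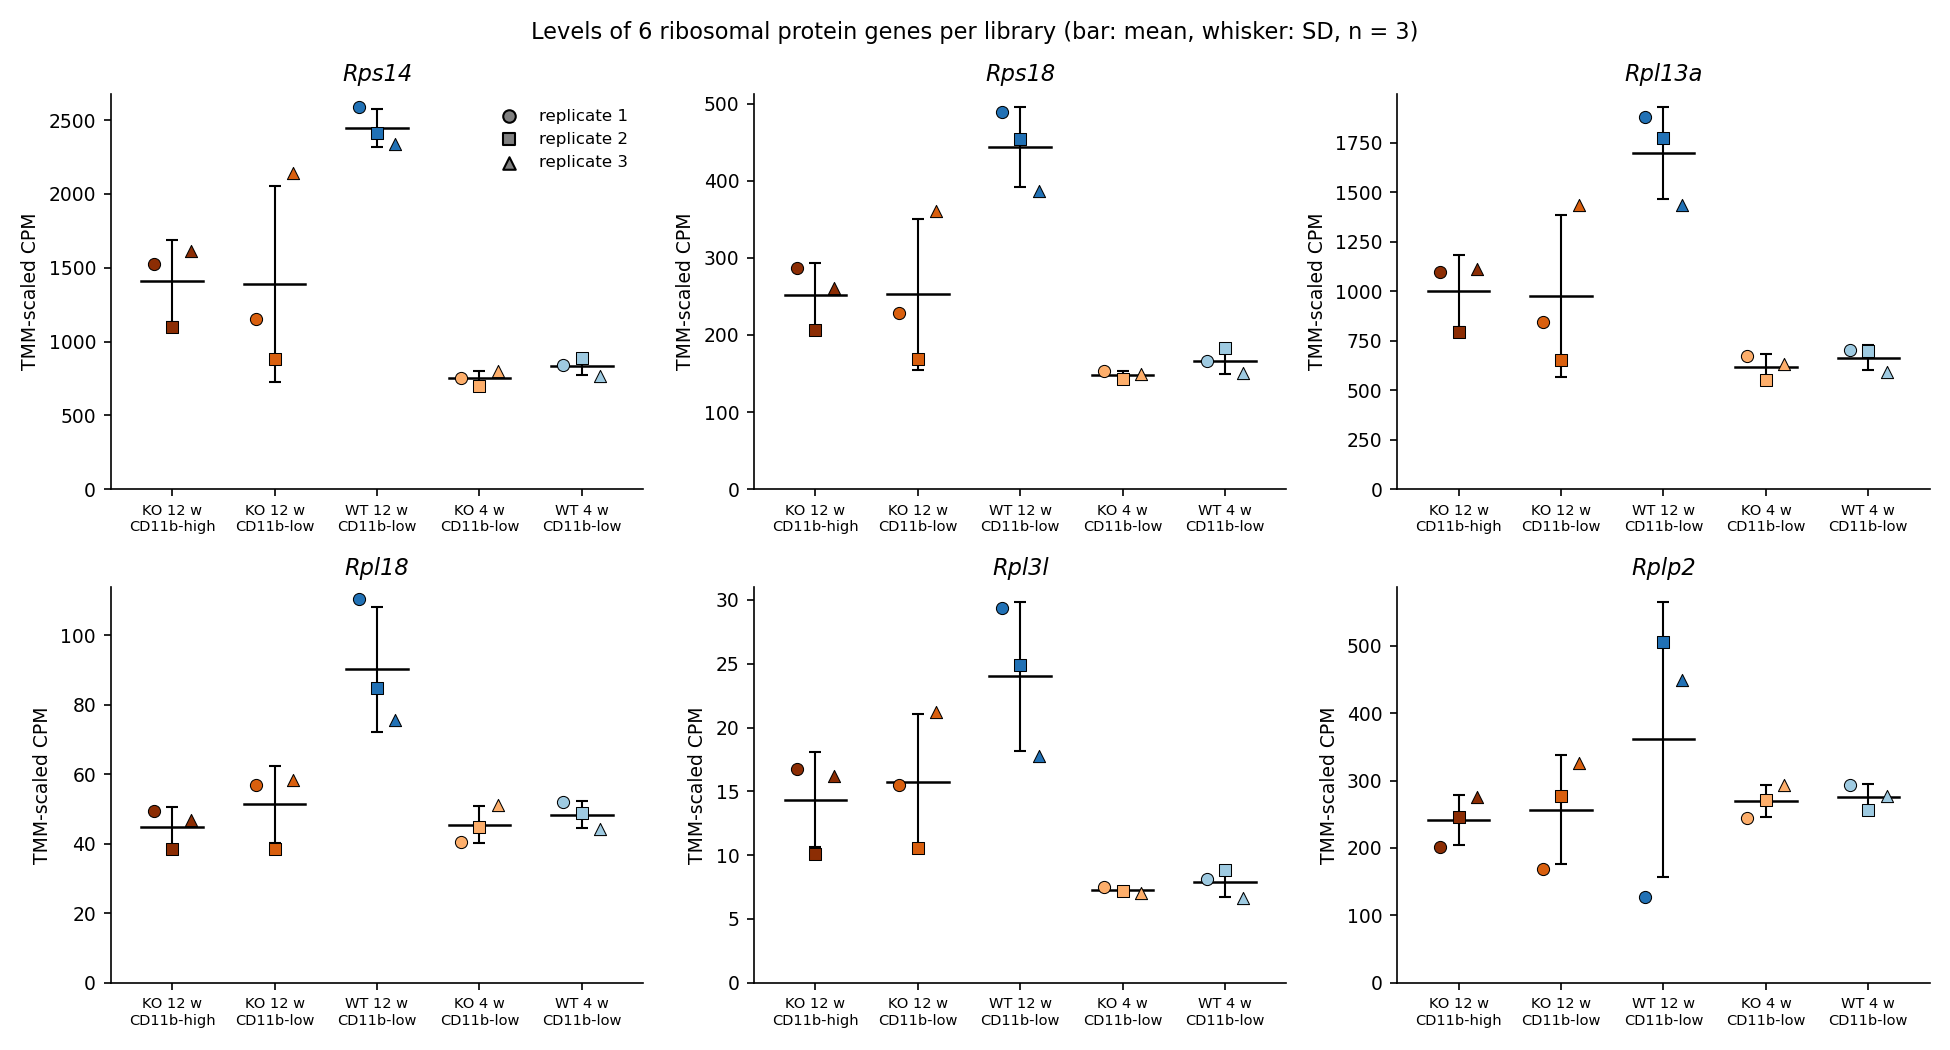
Level of 6 ribosomal protein genes in TMM-scaled CPM in each library (symbols by replicate number), with the group mean (bar) and SD (whisker), n = 3. Rps14 was between 2340.1 and 2585 CPM in WT cells at 12 weeks, above all other libraries, while Rplp2 was 127 CPM in the first WT library at 12 weeks and 450 and 506 CPM in the other two.

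Whether the genotype difference itself changed with age was tested as an interaction. No ribosomal protein gene passed it with edgeR, DESeq2 or limma voom, and 0.248% of all genes did with edgeR, all of them with a positive interaction. The median interaction of the 85 genes was -0.54 on the log2 scale, against -0.02 over all genes, and 77 of the 85 were below 0. An unadjusted p under 0.05 by edgeR was found for 4 of the 85, against 8.3% of all genes. Without the first WT library at 12 weeks the median was -0.39 and none was called. Rpl12, of the base of the ribosomal stalk, had the smallest p. It had 3.63, 3.37 and 5.12 CPM in KO cells at 12 weeks, against 9.94, 6.97 and 5.16 CPM in WT cells, and 5.66, 4.145 and 3.23 CPM in KO cells at 4 weeks, against 3.38, 3.84 and 3.66 CPM in WT cells. The KO and WT libraries overlapped at 4 weeks and not at 12 weeks. The interaction was -1.12 (SE 0.43, unadjusted p = 0.019, adjusted p = 0.464 by edgeR), and in Rpl39 and Rpl18 it was -0.84 and -0.72.

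At 4 weeks, KO against WT cells gave no calls. None of the 85 genes passed the threshold with edgeR, DESeq2 or limma voom and none had an unadjusted p under 0.05 with edgeR, where 0.0979% of all genes were called, 0.0151% higher and 0.0828% lower. The median log2 fold change was -0.03, and the quartiles were -0.10 and 0.03. The smallest p was that of Rps27, with 0.974, 0.790 and 0.718 CPM in KO cells, against 1.88, 1.24 and 1.15 CPM in WT cells. Its libraries did not overlap, but it had few counts and few unique windows, and its log2 fold change of -0.78 (SE 0.49) had an adjusted p of 1 by edgeR. Rpl13 and Rps19bp1 came next, at -0.53 (SE 0.38) and -0.50 (SE 0.41), and the groups overlapped in both. In 6 genes the KO libraries lay below and in 2 above all WT libraries, against 4.72% and 3.91% of all genes.

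Within KO mice at 12 weeks, CD11b-high against CD11b-low cells gave no call among the 85 genes with edgeR, DESeq2 or limma voom, where 0.693% of all genes were called, 0.572% higher and 0.12% lower. The median log2 fold change was 0.01, as it was over all genes, with 46 genes above 0 and 39 below. Rps16 had the smallest p: it had 11.5, 16.9 and 14.4 CPM in CD11b-high cells, against 6.99, 8.47 and 11.7 CPM in CD11b-low cells. These overlapped slightly, and the log2 fold change was 0.66 (SE 0.26, unadjusted p = 0.0227, adjusted p = 0.365 by edgeR). Rpl38, known in mice for the translation of some Hox messenger RNAs, had 23.4, 27.5 and 26.0 CPM in CD11b-high cells, against 16.5, 15.9 and 22.2 CPM in CD11b-low cells, without overlap, at a log2 fold change of 0.49 (SE 0.23). Rpl13 reached 31.3 CPM in the third CD11b-high library and 13.04 and 14.3 CPM in the other two, against 9.18 to 13.3 CPM in CD11b-low cells. In 5 genes the CD11b-high libraries lay above all CD11b-low libraries, against 7.91% of all genes, and in none below, against 5.86%. In all, 4 genes had an unadjusted p under 0.05, against 1332 of the 13284 genes tested. Leaving out the third CD11b-low library moved the median of the 85 genes to 0.25.

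CD11b-high KO cells were also set against CD11b-low WT cells of the same age, a comparison that changes genotype and sorted subset together and shares its WT libraries with KO against WT CD11b-low cells and its KO libraries with the CD11b comparison. Here 20 of the 85 genes fell and none rose, where 14.8% of all genes were called, 5.6% lower and 9.23% higher. The median log2 fold change was -0.58, a 1.49-fold lower level, against -0.01 over all genes. In 35 genes every CD11b-high library lay below every WT library, which held for 10.8% of all genes, and in 1 gene (Rpl5) above, against 15.6%. Of the 20 genes 14 were large-subunit and 6 small-subunit genes.

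Rpl18 had 49.4, 38.5 and 46.95 CPM in CD11b-high KO cells, against 110.3, 84.7 and 75.5 CPM in WT cells, and it fell by 1.003 on the log2 scale, with no overlap (SE 0.22, adjusted p = 0.0063 by edgeR), the smallest adjusted p of the family. Rpl32 fell by 0.91 and Rpl29 by 0.90, each with no overlap, and Rpl37 by 0.92 with overlap, since its highest CD11b-high library (117 CPM) was above its lowest WT library (109 CPM). The count rests on single libraries: it was 11 without the first WT library (9 of them among the 20), 1 without the second and 2 without the third CD11b-high library, and 0 in a fit to these 2 groups alone. The median stayed between -0.68 and -0.37 when single libraries were left out, the upper value being the one without the first WT library.

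**Figure D5:**
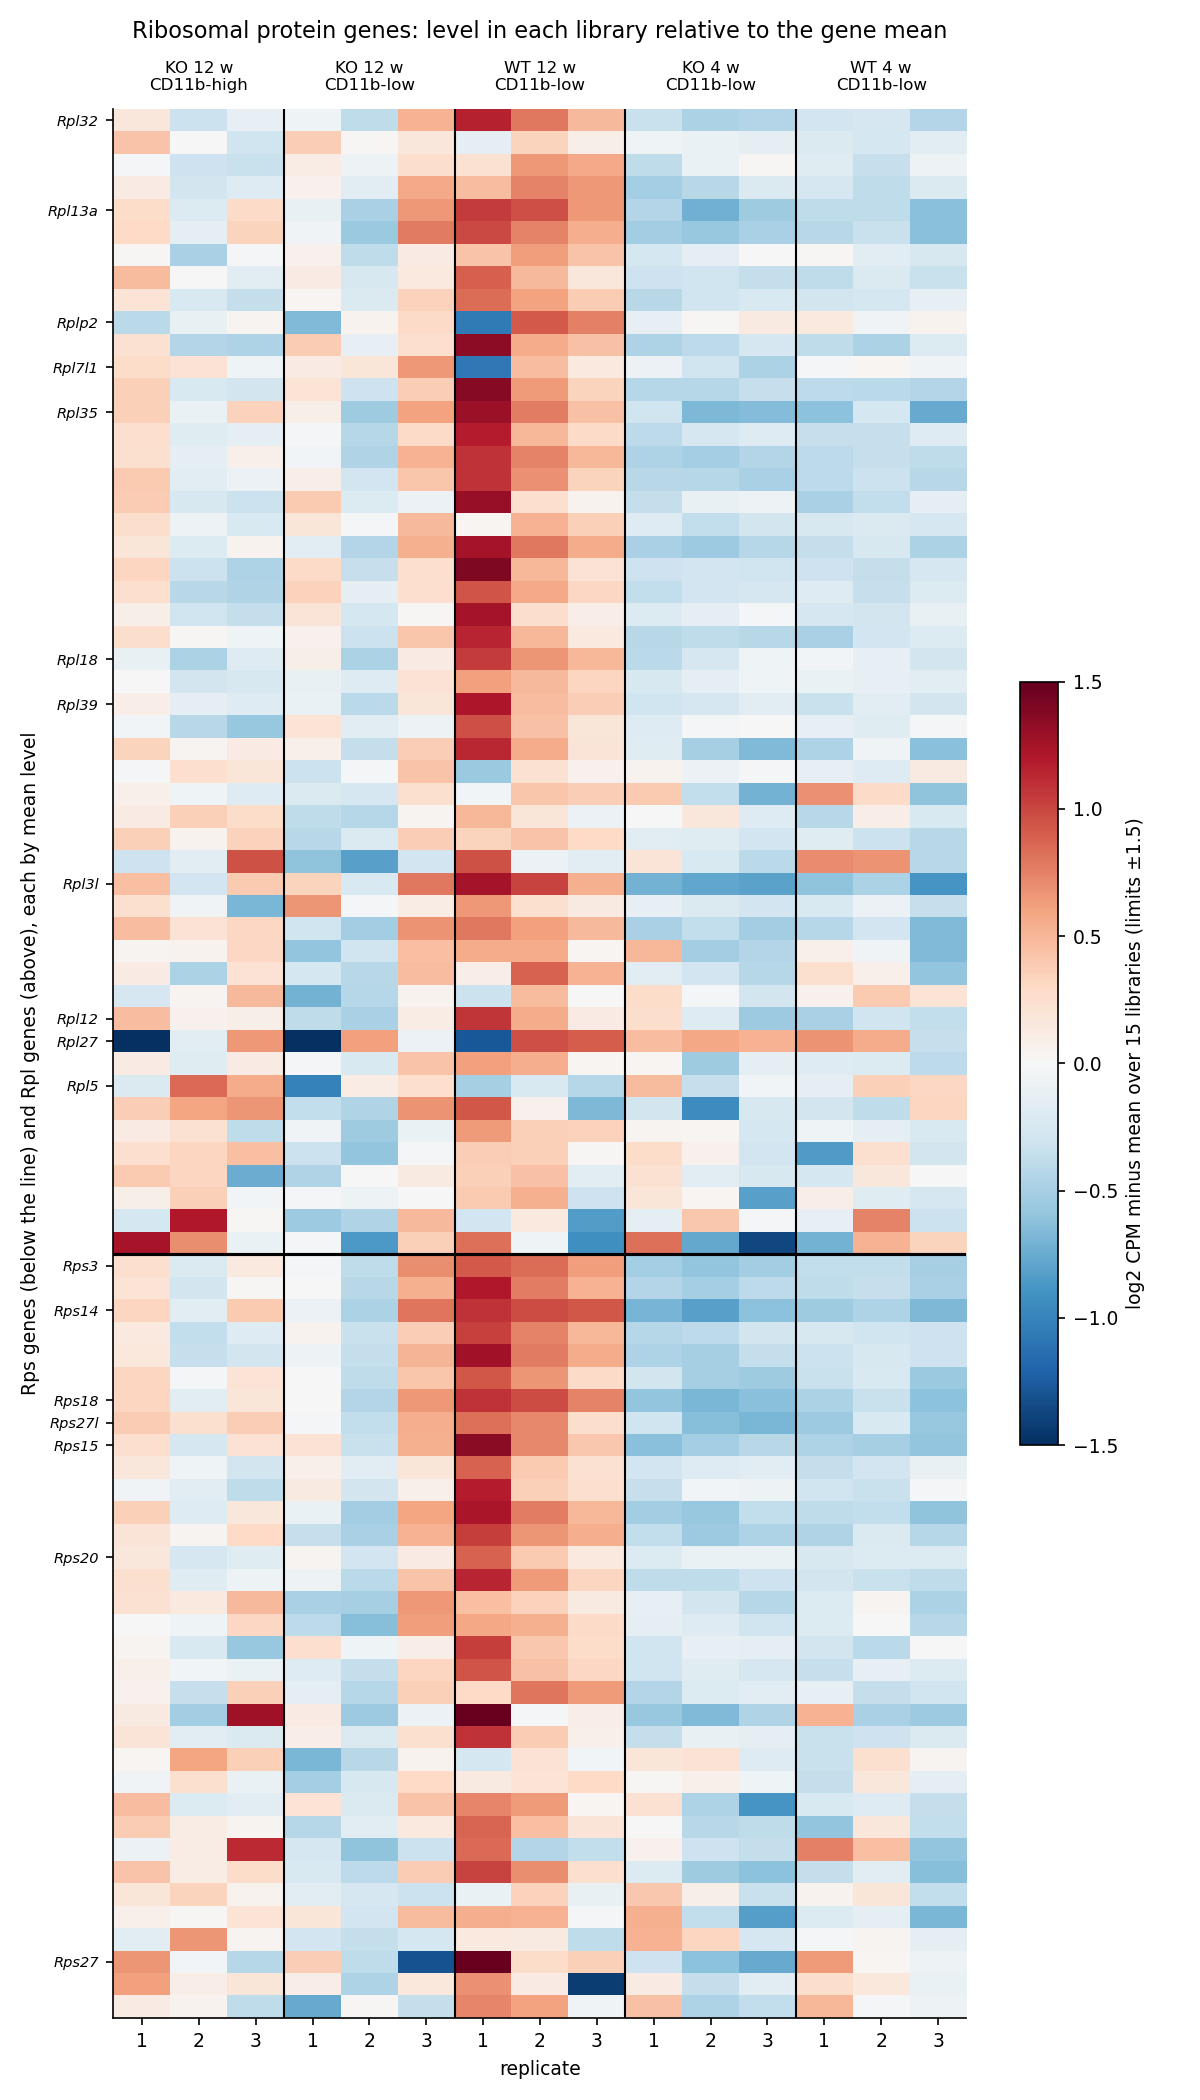
Level of each of the 85 tested ribosomal protein genes in each library as log2 CPM minus the gene's mean over the 15 libraries, Rpl genes above the line and Rps genes below it, each ordered by mean level, with some genes named at the side. The first WT library at 12 weeks is the highest of all for 57 genes, and a few genes, such as Rplp2, Rpl27 and Rpl7l1, are low there.

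By group mean, 68 of the 85 genes were highest in WT cells at 12 weeks, 11 in CD11b-high KO cells, and 2 in each of the other 3 groups. The lowest group mean was that of KO cells at 4 weeks in 43 genes. By range between group means, among the 85 tested genes, Rpl3l, Rps14, Rps18, Rpl13a and Rps27 varied most, and of these Rps27 rests on 0.489 to 3.58 CPM in all.

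The stalk of the large subunit, which calls in the elongation factors, is built from Rplp0 and the paired proteins Rplp1 and Rplp2. Rplp0 had 1069, 909.6 and 1518 CPM in CD11b-low KO cells at 12 weeks, against 1408, 1716 and 1606 CPM in WT cells at 12 weeks, and 720.3, 768 and 879 CPM in KO cells at 4 weeks, against 859, 784 and 879 CPM in WT cells. It rose with age in WT cells (log2 fold change 0.91, SE 0.23, adjusted p = 0.0128 by edgeR). Rplp1 had 394, 289 and 413 CPM in CD11b-low KO cells at 12 weeks, against 509, 581 and 508 CPM in WT cells, and its age change in WT cells just missed the threshold (log2 fold change 0.62, adjusted p = 0.0563 by edgeR). Rplp2 had 168, 277 and 326 CPM in CD11b-low KO cells at 12 weeks, against 127, 506 and 449.9 CPM in WT cells, so one WT library was the lowest and another the highest of the series. Its log2 fold change with age in WT cells was 0.39 (SE 0.36, adjusted p = 0.499 by edgeR), and 0.80 without the first WT library at 12 weeks (adjusted p = 0.0266 by edgeR). Rpsa, of the small subunit and also known as a laminin receptor, was between 7.99 and 14.03 CPM in all libraries and passed in no comparison.

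Rplp2 was also one of 4 genes that set the 3 libraries numbered 1 at 12 weeks apart. It was 127 to 202 CPM in those 3 libraries, against 247 to 506 CPM in the other 6 of that age, and Rpl27 was 0.978 to 1.69 CPM, against 3.66 to 7.99 CPM. Rpl23 was 162 to 309 CPM in the 3, against 99.7 to 149 CPM in the other 6, and Rps27 1.556 to 3.58 CPM, against 0.489 to 1.552 CPM. Of all genes 5.66% lay lower in the 3 libraries than in all of the other 6, and 4.95% higher, so 2 and 2 of 85 are no more than the share of all genes. What the 3 libraries share was not tested.

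Several ribosomal protein genes have a second copy that encodes a related protein. Rps27l, a paralogue of Rps27 known as a p53 target, was the most abundant of the copies, with 218, 173 and 324.5 CPM in CD11b-low KO cells at 12 weeks, against 393, 367 and 268 CPM in WT cells, and it was 138 to 190.3 CPM at 4 weeks. It rose with age in WT cells (log2 fold change 1.06, SE 0.25, adjusted p = 0.00897 by edgeR). Per kb it was at 473 CPM, against 3.92 CPM for its parent Rps27, but Rps27l is 88.0% unique and Rps27 1.48%, so that ratio cannot be read as one between proteins. The retrogene copy Rps27rt was 9.67% unique, at 2.81 to 8.86 CPM.

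Rpl22l1 had 42.6, 31.7 and 52.4 CPM in CD11b-low KO cells at 12 weeks, against 89.0, 59.8 and 46.5 CPM in WT cells, and Rpl22 had 164, 123 and 202 CPM, against 375, 235 and 202 CPM. Both rose with age in WT cells, by 1.04 (SE 0.27, adjusted p = 0.0138) and 0.998 (SE 0.25, adjusted p = 0.0128) on the log2 scale by edgeR. The copy Rpl36al likewise rose with age in WT cells (log2 fold change 0.98, SE 0.25, adjusted p = 0.0144 by edgeR), while its parent Rpl36a, 15.4% unique and 1.29 to 3.28 CPM, had 0.36 (SE 0.34). Exons of another gene overlap 63.1% of the Rpl36al transcript, and 38.7% of its windows are unique, so its reads cannot be assigned with certainty either. Rpl3, the parent of Rpl3l, had a log2 fold change with age of 0.55 in WT cells (SE 0.21, adjusted p = 0.0774 by edgeR) and 0.52 in KO cells (SE 0.21), with no overlap between ages in either.

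Rpl7l1 had 240.2, 251 and 348 CPM in CD11b-low KO cells at 12 weeks, against 105, 304 and 245 CPM in WT cells, and 208, 180.4 and 159 CPM in KO cells at 4 weeks, against 216, 226 and 213 CPM in WT cells. The first WT library at 12 weeks was the lowest of the series. Its log2 fold change with age was 0.62 in KO cells (SE 0.30, adjusted p = 0.206) and 0.00 in WT cells, whereas Rpl7 rose in WT cells by 0.84 (SE 0.22, adjusted p = 0.016 by edgeR). The difference between the 2 genes was not tested. Rpl39l, a copy known from the testis, was 1.97 to 7.21 CPM, and Rpl10l, another testis copy, had at most 0.244 CPM and did not pass the filter on low counts. Rpl10 itself, 8.14% unique, was 14.8 to 39.1 CPM and passed in no comparison.

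Some ribosomal proteins carry other names. Rack1, a scaffold protein on the small-subunit head, had 1116, 1046 and 1829 CPM in CD11b-low KO cells at 12 weeks, against 1736, 1919.5 and 1937 CPM in WT cells, and 942, 859.7 and 954 CPM in WT cells at 4 weeks. It rose with age in WT cells (log2 fold change 1.02, SE 0.24, adjusted p = 0.00891 by edgeR). Fau, whose precursor carries a ubiquitin-like part joined to a ribosomal protein, was at 7.17 to 14.8 CPM and passed in no comparison.

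Lists around the ribosome are described by counts. Mitochondrial ribosomal protein genes, which serve the separate ribosomes of mitochondria, rose with age in WT cells in 33 and fell in 1 of 75 tested, with a median log2 fold change of 0.60, where 8.79% of all genes rose and 8.39% fell. In CD11b-high KO against WT cells 15 of them fell and none rose, where 5.6% of all genes fell and 9.23% rose, and in KO against WT CD11b-low cells at 12 weeks none passed, with a median of -0.45. Examples for age in WT cells are Mrps16, which had 126 ± 28.6 CPM at 12 weeks, against 52.9 ± 6.10 CPM at 4 weeks (SD, n = 3 each; adjusted p = 0.00384 by edgeR), and Mrpl40 (adjusted p = 0.00447). With age in WT cells 7 of 38 translation factors rose and 4 fell, beside the 8.79% and 8.39% of all genes. Eif3k, a subunit of initiation factor eIF3, had 790 ± 274 CPM in WT cells at 12 weeks, against 333 ± 25.9 CPM at 4 weeks, and Eef1b2, an exchange factor for elongation factor eEF1A, 475 ± 43.3 CPM, against 250.5 ± 12.5 CPM. Eif4b, which aids the helicase of initiation, fell, with 81.9 ± 10.5 CPM at 12 weeks, against 168 ± 34.2 CPM at 4 weeks (adjusted p = 0.00849 by edgeR).

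Of 70 ribosome biogenesis genes tested 7 rose and 13 fell with age in WT cells, beside the 8.79% and 8.39% of all genes, with a median log2 fold change of -0.17. The 7 are near the share of all genes. Nop10, of the particles that modify ribosomal RNA, rose to 388 ± 120 CPM in WT cells at 12 weeks, against 165 ± 5.43 CPM at 4 weeks. Polr1a, the largest subunit of RNA polymerase I, fell to 6.93 ± 1.48 CPM at 12 weeks, against 17.1 ± 4.78 CPM at 4 weeks (adjusted p = 0.00786 by edgeR), and Utp15, of the small-subunit processome, to 11.2 ± 0.882 CPM, against 22.2 ± 1.53 CPM. Among 29 tested genes of growth signalling to translation 4 rose and 5 fell with age in WT cells, few genes to set beside the 8.79% and 8.39% of all genes. Lamtor5 and Lamtor4, of the lysosomal complex that recruits mTORC1, rose by 1.26 (SE 0.26) and 1.13 (SE 0.25) on the log2 scale, and Larp4, which binds poly(A) tails, fell by 1.28 (SE 0.31). With age in CD11b-low KO cells 1 of the 29 rose and 1 fell, where 4.81% of all genes rose and 2.08% fell. Lamtor1 rose to 159 ± 21.6 CPM at 12 weeks, against 95.7 ± 4.3 CPM at 4 weeks (adjusted p = 0.0448 by edgeR). Eif4ebp1, the inhibitor of cap-dependent initiation that mTORC1 switches off, fell. It had 11.3 ± 4.25 CPM at 12 weeks, against 45.1 ± 2.99 CPM at 4 weeks (adjusted p = 0.0164 by edgeR).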

How the data were processed

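RNA of 15 libraries was read as gene counts, in 1 table that the authors deposited; per the submitters' processing notes STAR and featureCounts (Subread) were used, and the deposited counts are raw. The genome build, strand setting, read length and treatment of reads with several matches are not given in the sources used here. Per the labels' protocols, RNA was amplified with a SMARTer kit. Of 40780 rows, 270 repeats were removed. Counts were tested with edgeR 4.0.16 (TMM factors, quasi-likelihood, robust) in R 4.3.3 after filterByExpr (minimum count 10, minimum total 15), which kept 13284 genes. All 5 groups shared 1 fit with 10 residual degrees of freedom, and p-values were adjusted over all tested genes (Benjamini-Hochberg, threshold 0.05). CPM values carry the TMM factors. DESeq2 1.42.0, limma voom 3.58.1 and other scalings, filters and left-out libraries were alternatives. The fit was also run on simulated counts drawn independently for each gene and library. That run does not cover effects that many genes of a library share.

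Shared 75-base windows were counted on GENCODE M21 transcripts, and promoters are RefSeq's (GRCm38.p6). The genes, lists and tests were chosen with earlier results of these data known. Genes named in each comparison were, among those that passed, at most 6 in each direction by size of change with a group mean of at least 10 CPM, and where none passed the 3 with the smallest p. Added to these were the 5 highest and the 5 most variable genes, the paralogues with their parents, the stalk genes and Rpsa, and at most 3 called genes per related list. Rpl4, Rpl5, Rpl15, Rpl23, Rpl23a, Rpl24, Rpl27, Rps6, Rps15a, Rps20, Rps21 and Rps29 were named after their values were seen. Libraries with the same number correlated within KO mice at 12 weeks (CD11b-high and CD11b-low, r of 0.43, 0.353 and 0.113 for the deviations from the group means). Between CD11b-low KO and WT cells at 12 weeks the same-numbered r were 0.364, 0.0854 and 0.205, against -0.321 to 0.167 for unlike numbers. The sources used here do not say what same-numbered libraries share, and its part in the results was not tested. With 3 libraries in a group, each p-value sets a difference against the spread between pools of mice, estimated over all 5 groups. The main fit did not pair same-numbered libraries. Some genes that the naming rule selects are not reported here.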

Additional observations from a re-analysis of the deposited data

Results flagged for a closer look

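Rps20, a small-subunit head protein, had 132, 106 and 140.2 CPM in CD11b-low KO cells at 12 weeks, against 238.1, 169 and 141.9 CPM in WT cells. At 4 weeks it had 111.9, 119.8 and 121 CPM in KO cells, against 109, 111.8 and 111.7 CPM in WT cells. It stands out because every KO library lay below every WT library at 12 weeks and above every WT library at 4 weeks. Both margins were narrow. The nearest KO and WT libraries had 140.2 and 141.9 CPM at 12 weeks, and 111.9 and 111.8 CPM at 4 weeks. Of all genes, 7.99% lay lower in KO cells without overlap at 12 weeks, and 3.91% higher at 4 weeks. The share with both was not counted, and Rps20 was picked from the tested ribosomal protein genes after their values were seen. The genotype difference was -0.54 on the log2 scale at 12 weeks and 0.08 at 4 weeks, and neither passed the threshold. The test of the difference itself, the interaction, gave -0.62 (SE 0.31, unadjusted p = 0.0602, adjusted p = 0.62 by edgeR), which does not pass.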

How the results depend on the processing

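With 3 libraries a group, single libraries move the counts. The median of the 85 genes kept its sign under the alternatives run for KO against WT cells at 12 weeks, CD11b-high KO against WT cells, age in WT cells and the interaction, and it did not for age in KO cells, KO against WT cells at 4 weeks (0.02 with library totals) or CD11b-high against CD11b-low cells. Of the 25 genes under 10 CPM, 3 passed for age in WT cells. The cause was not tested for the changes given here.

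For KO against WT cells at 12 weeks, genes called lower among the 85 numbered 0, against 4 with library totals, 2 without the filter, 12 with DESeq2, 1 with a replicate block within each age and 1 without the 3 libraries numbered 1 at 12 weeks, an alternative added after seeing the data, as was the block within each age. All called genes numbered 412, and 1090 without the filter, 880 with DESeq2, 189 with only the groups compared, 629 with the block within each age and 703 without the libraries numbered 1. For 4 weeks all called genes numbered 13, and 73 without the filter, 24 with DESeq2 and 4 with only the groups compared. For CD11b-high against CD11b-low KO cells they numbered 92, and 533 without the filter, 261 with DESeq2, 148 with limma voom, 18 with only the groups compared and 513 without the libraries numbered 1.

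For CD11b-high KO against WT cells, 20 of the 85 were lower, 31 with library totals, 31 with DESeq2, 0 with only the groups compared and 13 among the genes with at least 50% unique windows (added after seeing the data). Without the libraries numbered 1, 25 genes were lower and 1 was higher, and these hold all 20. All called genes numbered 1970, 793 with only the groups compared and 3136 without the libraries numbered 1. For age in KO cells 1 of the 85 was higher, 2 with DESeq2 size factors, 0 with library totals, 2 without the filter, 6 with DESeq2 and 8 without the libraries numbered 1. All called genes numbered 915, and 1498, 1395, 1698 and 1646 with library totals, no filter, DESeq2 and only the groups compared, 1439 with the block within each age and 1984 without the libraries numbered 1. The median was 0.26, and -0.088 with library totals. For age in WT cells 46 of the 85 were higher, 23 with only the groups compared and 30 among the genes with at least 50% unique windows. All called genes numbered 2282, 1123 with only the groups compared and 3702 without the libraries numbered 1, and the median was 0.60 with library totals. For the interaction all called genes numbered 33, and 321 without the filter, 151 with DESeq2, 6 with limma voom, 67 with the block within each age and 63 without the libraries numbered 1.

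Leaving out single libraries gave these ranges. All called genes numbered 230 to 426 for KO against WT at 12 weeks, 4 to 15 at 4 weeks, 2 to 247 for CD11b-high against CD11b-low, 952 to 2099 for CD11b-high KO against WT, 235 to 1305 for age in KO cells, 1069 to 2528 for age in WT cells and 3 to 35 for the interaction. Of the 85 genes, 0 to 14 were lower for KO against WT at 12 weeks, 1 to 29 for CD11b-high KO against WT, 0 to 7 higher for age in KO cells and 25 to 45 higher for age in WT cells. The medians ran from -0.71 to -0.42, -0.07 to -0.01, -0.18 to 0.25, -0.68 to -0.37, 0.10 to 0.41, 0.63 to 0.91 and -0.71 to -0.39 in the same order of comparisons. The mean shares ran from 2.57 to 3.13% in WT cells at 12 weeks and from 1.61 to 1.96% in CD11b-low KO cells.

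Of the genes named, small changes turned sign. For age in WT cells Rpl7l1 (-0.00) was 0.060 with DESeq2 size factors and with DESeq2, 0.0049 with TMM without the ribosomal protein genes, 0.0081 without the filter and 0.33 without the libraries numbered 1, and -0.32 to 0.33 with single libraries left out. Rpl10 (0.04) was -0.20 with library totals and -0.24 to 0.35 with single libraries left out, and Rpl39l (0.33) was -0.18 without the libraries numbered 1 and -0.18 to 0.63. For KO against WT at 12 weeks Rpl39l (-0.21) was 0.47 without the libraries numbered 1 and -0.66 to 0.30, and Rpl3 (-0.08) was -0.23 to 0.034 with single libraries left out.

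With the replicate number as a block, 66 genes passed the interaction and 97 passed CD11b-high against CD11b-low, with 0 of the 85 in both. Only CD11b-high against CD11b-low sets libraries of the same genotype and age against each other. The interaction and the other comparisons cross genotype or age. Same-numbered CD11b-low KO and WT libraries at 12 weeks still correlated, as given above. In the comparisons not yet named the block gave 474 genes for KO against WT at 12 weeks, 13 at 4 weeks and 2138 for CD11b-high KO against WT (23 of the 85 lower). It gave 945 for age in KO cells and 2377 for age in WT cells (46 of the 85 higher).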
